A study of Homo sapiens with 13 samples.

Results

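Expression of 33 genes of glycolysis and the hypoxia response, with the mitophagy receptor BNIP3 at their head, was described in 13 untreated acute lymphoblastic leukemia (ALL) cell lines on HG-U133 Plus 2.0 arrays. BNIP3 was chosen by its level, which had been seen to be lower in lines with a higher methotrexate IC50 after 2 days of drug, a measurement not used here. The other members were chosen by pathway, with earlier results of these data known. A single-symbol probe set was read for 30 of the 33 members, out of 18568 genes on the array, and where a gene had several, the one brightest on average over the 13 arrays was taken. SLC16A1 and SLC16A3, which carry lactate across the plasma membrane, and the carbonic anhydrase CA9 were not analysed here. The lines comprised 7 of T-cell ALL (T-ALL), namely Jurkat, Molt4, CCRF-CEM, P12-ICHIKAWA, TALL-1, HPB-ALL and ALL-SIL, and 6 of B-cell precursor ALL (BCP-ALL), namely REH, 697, Nalm6, RS4,11, Nalm16 and Nalm30. All were grown without drug in the same RPMI-based medium with serum, in incubator air with added CO2, so no line was put under low oxygen. Each line is 1 established culture measured on 1 array, so the spread within a group is the spread between lines.

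In cells with enough oxygen, the EGLN prolyl hydroxylases mark HIF1A, the alpha subunit of the transcription factor HIF-1, for destruction through VHL. When oxygen falls, HIF-1 accumulates and raises genes of glycolysis, of lactate production and of mitochondrial turnover, among them BNIP3 and BNIP3L, outer mitochondrial membrane proteins that recruit the autophagy machinery. PDK1, another HIF target, phosphorylates pyruvate dehydrogenase and so keeps pyruvate out of the mitochondrion. Leukemic lymphoblasts in culture run glycolysis also with oxygen present, so transcripts of most glycolytic enzymes are abundant in them.

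Promoter sequence is shown for BNIP3 and for those of the members with the closest pattern whose reference sequence could be printed, to show where the core letters of the hypoxia response element, to which HIF binds, lie in them. Many members were chosen as known HIF targets, so the presence of these letters is not independent of the choice. The letters ACGTG and GCGTG were searched on both strands of the 250 bases before each RefSeq start (GRCh38.p14, 5′ to 3′ on the strand of the gene). Capitals mark every match, and a match on the opposite strand reads CACGT or CACGC here. The BNIP3 window lies at chr10:131981924-131982173 (minus strand), that of PDK1 at chr2:172555840-172556089 (plus strand, at the later of its 2 starts, since the window of the earlier start held no match), that of ADM at chr11:10304823-10305072 (plus strand) and that of PGAM1 at chr10:97427568-97427817 (plus strand).
BNIP3: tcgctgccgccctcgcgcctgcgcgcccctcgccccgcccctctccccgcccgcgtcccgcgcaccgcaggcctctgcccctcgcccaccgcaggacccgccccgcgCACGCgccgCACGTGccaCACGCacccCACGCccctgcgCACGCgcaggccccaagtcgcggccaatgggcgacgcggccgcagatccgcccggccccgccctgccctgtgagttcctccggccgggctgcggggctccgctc
PDK1: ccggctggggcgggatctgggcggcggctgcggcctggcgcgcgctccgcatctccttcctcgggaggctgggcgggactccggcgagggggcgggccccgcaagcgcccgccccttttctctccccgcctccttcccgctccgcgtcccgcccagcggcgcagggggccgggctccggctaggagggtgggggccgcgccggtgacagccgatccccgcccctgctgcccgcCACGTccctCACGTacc
ADM: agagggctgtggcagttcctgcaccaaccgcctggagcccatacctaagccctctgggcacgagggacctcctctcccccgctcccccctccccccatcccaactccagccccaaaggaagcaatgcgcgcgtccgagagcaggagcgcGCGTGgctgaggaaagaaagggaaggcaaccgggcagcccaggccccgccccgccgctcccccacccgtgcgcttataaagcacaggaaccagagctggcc
PGAM1: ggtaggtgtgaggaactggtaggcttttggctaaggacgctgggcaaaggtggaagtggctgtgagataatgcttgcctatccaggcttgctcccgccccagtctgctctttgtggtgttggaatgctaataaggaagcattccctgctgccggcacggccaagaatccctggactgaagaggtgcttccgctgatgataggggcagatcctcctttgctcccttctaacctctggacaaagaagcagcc

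The BNIP3 window held 6 matches, 2 of ACGTG, which overlap in a palindrome that reads on both strands, and 4 of GCGTG. PDK1 held 2 of ACGTG, ADM 1 of GCGTG and PGAM1 none. Of 35116 windows of this length, 18.5% held ACGTG and 43.2% held either motif. RefSeq windows were found for 29 of the 33 members, and of their 50 windows, those of members without a level here included, 42.0% held ACGTG and 66.0% either motif. Both motifs contain the pair CG, and the windows of the members were rich in it, with a median of 23.5 CG pairs against 11 over all windows and 41 in BNIP3. A match is a run of letters and does not show binding, and no match says only that these letters are not in this window.

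The arrays matched their lineages: all 9 B-cell precursor markers tested were lower and 8 of 9 T-cell markers tested were higher in T-ALL lines, and CD3D and PAX5 were at or near the floor in the other lineage. MPO, a myeloid enzyme, lay between 4.69 and 5.32 in T-ALL lines and was 12.11 in REH, a BCP-ALL line. The arrays of P12-ICHIKAWA and TALL-1 had r = 0.993 over all probe sets, against 0.770 to 0.959 for all other pairs. Nalm16 and Nalm30 stood apart, with r = 0.959 to each other and 0.770 to 0.879 to the rest. Values with either pair averaged or left out stand beside some of the results they change. Values are log2 of signal plus 16, so 4 is the lowest value a probe set can take and a level within 1 unit of it is called near the floor.

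BNIP3 was either well measured or at the floor. In T-ALL lines its level was 10.43 in P12-ICHIKAWA, 10.00 in TALL-1, 9.17 in Jurkat, 8.42 in CCRF-CEM, 8.35 in Molt4, 4.12 in HPB-ALL and 4.0 in ALL-SIL. In BCP-ALL lines it was 9.92 in 697, 9.47 in REH, 9.01 in Nalm6, 4.22 in Nalm30, 4.05 in RS4,11 and 4.0 in Nalm16. No line lay between 4.22 and 8.35, and both lineages held lines at both ends, so the groups overlapped over nearly the whole range. Its SD over the 13 lines was 2.73, which placed BNIP3 75th by spread among the 12560 genes kept for the fits, those above the array median in at least 3 lines, whose median SD was 0.52. Its other probe set showed the same 5 lines near the floor and r = 1.0 with the one used. T-ALL lines averaged 7.78 ± 2.65 and BCP-ALL lines 6.78 ± 2.96 (SD, n = 7 and 6), a difference of 1.01 ± 1.41 on the log2 scale (SE), which did not pass the test (limma adjusted p = 0.688). Without Nalm16 and Nalm30 the difference was -0.33, so no direction can be given for it.

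Likeness to BNIP3 was measured as Pearson's r over the 13 lines and is a description with no test. BNIP3 was at the floor in 5 lines, so this r mostly sets those 5 lines against the 8 others, here called the lines with BNIP3. The 5 are ALL-SIL, HPB-ALL, Nalm16, Nalm30 and RS4,11. For many genes, r among the 8 lines with BNIP3 is therefore given beside it. All points share the scaling of the arrays, which is not known, and the array median itself had r = 0.65 with BNIP3 (its range was 5.15 to 5.32 in T-ALL lines and 5.05 to 5.37 in BCP-ALL lines). Over all members, 3 followed BNIP3 with arrays centred on their medians (PGAM1 was lost, r = 0.42) and 3 with quantile normalization (ADM was lost, r = 0.58), against 4 with the values as deposited.

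Of the 28 other members kept, 4 followed BNIP3 at an r of at least 0.6: PDK1 (0.73), BNIP3L (0.67), ADM (0.63) and PGAM1 (0.61). The same held for 5.49% of the other genes kept. No member ran opposite at an r of -0.6 or below, where 3.17% of the other genes lay. The median r was 0.25 over these members and 0.07 over all other genes kept, with 21 of 28 members and 6900 of 12559 genes above 0. Spearman's rho was 0.81 for PDK1, 0.71 for ADM, 0.65 for BNIP3L and 0.56 for PGAM1. Leaving out ALL-SIL and Nalm16, the 2 lines farthest from the BNIP3 median, gave r = 0.73 for PDK1, 0.68 for BNIP3L, 0.63 for ADM and 0.51 for PGAM1.

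PDK1 had the pattern nearest to BNIP3 among the members. In T-ALL lines it was 8.89 in CCRF-CEM, 8.88 in P12-ICHIKAWA, 8.58 in TALL-1, 8.44 in Jurkat, 7.30 in HPB-ALL, 7.24 in Molt4 and 4.14 in ALL-SIL. In BCP-ALL lines it was 8.40 in REH, 8.38 in 697, 8.13 in Nalm6, 7.98 in RS4,11, 6.71 in Nalm30 and 6.41 in Nalm16. Of the 5 lines with BNIP3 at the floor, ALL-SIL was the lowest for PDK1 and at the floor for it too, and Nalm16 and Nalm30 came next. RS4,11 lay close to Nalm6 although its BNIP3 was at the floor, and Molt4, which had BNIP3, lay slightly below HPB-ALL, which did not. Its r was 0.80 in T-ALL and 0.80 in BCP-ALL lines taken alone, 0.51 among the 8 lines with BNIP3, and at least 0.71 when any 1 line was left out. The other PDK1 probe set, also near the floor in 1 line, had r = 0.65.

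BNIP3L, also called NIX, is the homologue of BNIP3 and was above the floor in every line. Its levels in T-ALL lines were 11.12 in P12-ICHIKAWA, 10.89 in TALL-1, 9.84 in CCRF-CEM, 9.49 in Molt4, 9.35 in Jurkat, 9.08 in ALL-SIL and 8.99 in HPB-ALL. In BCP-ALL lines they were 9.73 in REH, 8.85 in 697, 8.12 in RS4,11, 8.02 in Nalm6, 7.19 in Nalm30 and 5.33 in Nalm16. ALL-SIL and HPB-ALL, the T-ALL lines with BNIP3 at the floor, were the lowest of their group for BNIP3L but above 5 of the 6 BCP-ALL lines. Without Nalm16 and Nalm30 the r was 0.53, with both alike pairs averaged it was 0.58, among the 8 lines with BNIP3 it was 0.47, and the second BNIP3L probe set had r = 0.42.

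ADM encodes the vasodilator peptide adrenomedullin. It reached 9.45 in P12-ICHIKAWA, 7.92 in TALL-1, 7.43 in Jurkat, 6.72 in CCRF-CEM, 5.91 in Molt4, 5.39 in ALL-SIL and 4.30 in HPB-ALL among T-ALL lines. Among BCP-ALL lines it was 7.30 in REH, 6.62 in Nalm30, 6.51 in 697, 5.79 in Nalm16, 4.10 in RS4,11 and 4.06 in Nalm6. The T-ALL lines kept nearly the order of BNIP3 (r = 0.89 over 7 lines), whereas in BCP-ALL lines Nalm6 had BNIP3 without ADM and Nalm30 had ADM without BNIP3 (r = 0.24 over 6 lines). Among the 8 lines with BNIP3 the r was 0.64. It was 0.58 with P12-ICHIKAWA and TALL-1 averaged and 0.56 to 0.59 without RS4,11, HPB-ALL, P12-ICHIKAWA or TALL-1 alone, all below the threshold. Above it were 0.72 without Nalm16 and Nalm30, 0.79 without Nalm6 and 0.63 with both alike pairs averaged.

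PGAM1, the phosphoglycerate mutase of lower glycolysis, followed BNIP3 over a narrow span. It lay between 11.30 and 12.04 in T-ALL lines (median 11.56) and between 11.12 and 11.40 in BCP-ALL lines (median 11.25), and Jurkat was the highest. Among the 8 lines with BNIP3 the r was -0.24, and with each array centred on its median it was 0.42 over 13 lines. It was 0.47 without Nalm16 and Nalm30, 0.55 with both alike pairs averaged, and 0.54 to 0.60, below the threshold, when any of RS4,11, Nalm16, Nalm30, ALL-SIL, CCRF-CEM or P12-ICHIKAWA was left out alone.

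**Figure D1:**
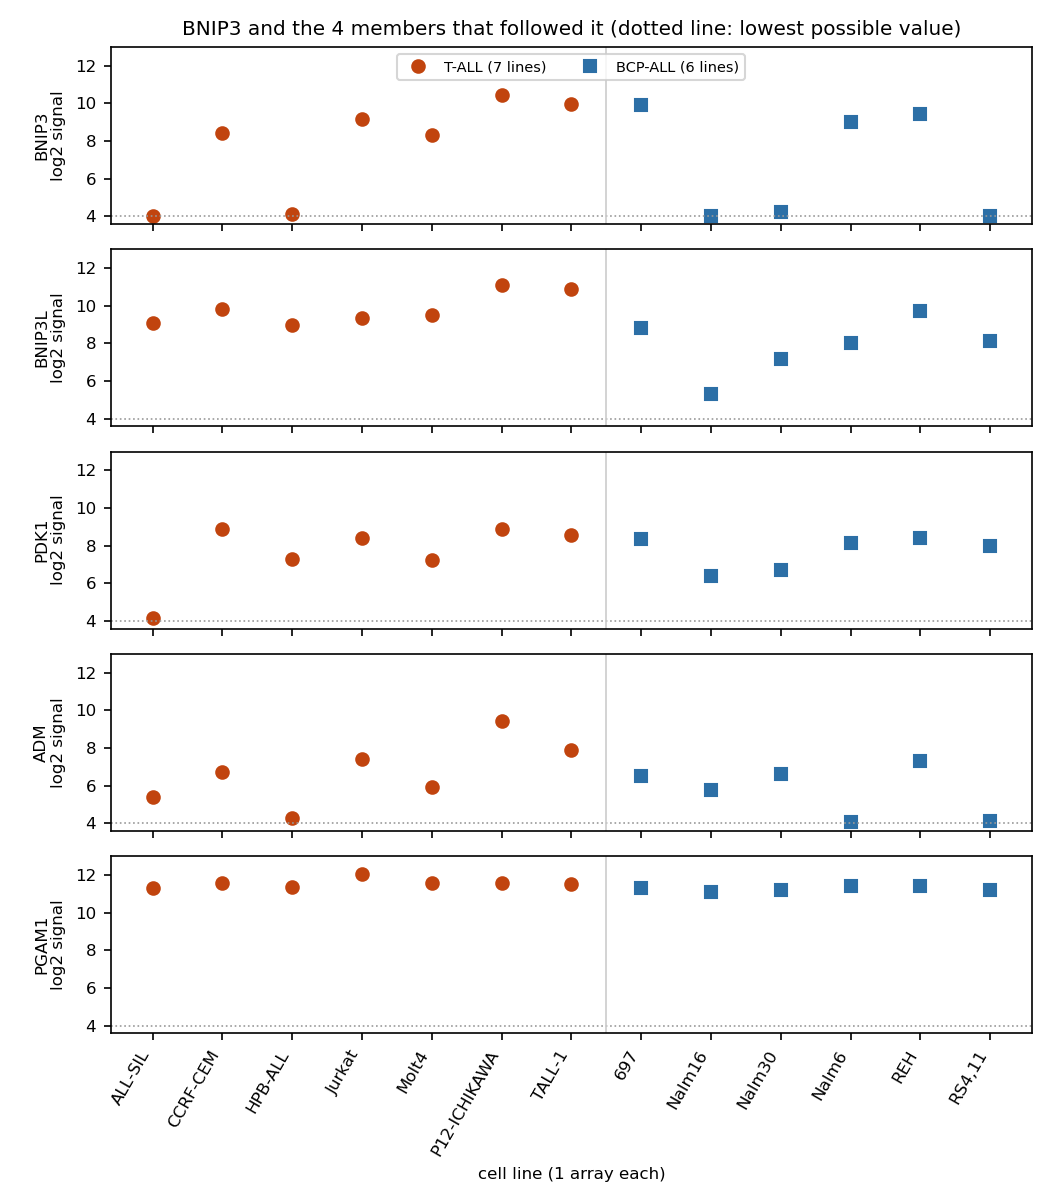
Level (log2 signal) of BNIP3, BNIP3L, PDK1, ADM and PGAM1 in each line, with 7 T-ALL lines (circles) left of 6 BCP-ALL lines (squares) and 1 array per point; all panels share 1 scale and the dotted line is the lowest possible value, 4. BNIP3 is between 8.35 and 10.43 or below 4.23, while BNIP3L stays above 5 everywhere and PGAM1 spans less than 1 unit.

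The glycolytic enzymes did not share the pattern as a group. Their median r with BNIP3 was 0.11 over 15 genes, near the 0.07 of all genes kept, with 1 of 15 at 0.6 or above and 10 of 15 above 0. Most varied little: their median SD over the lines was 0.35, against 0.52 over all genes kept and 0.87 for the 7 other HIF targets. The 105 pairs of glycolytic enzymes had a median r of 0.11 with each other, and 8.57% of the pairs reached 0.6, against 8.24% of all pairs of genes kept. That share was close to the share over genes in general. PGK1 with ENO1 (r = 0.81), ALDOC with LDHB (0.83) and PGAM1 with LDHA (0.77) were the closest pairs inside the pathway, and PFKL with PGAM1 (-0.77) and PFKM with ENO1 (-0.73) the most opposed.

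Taken in the order of the pathway, GPI, which converts glucose-6-phosphate to fructose-6-phosphate, lay between 10.79 and 11.67 in T-ALL lines and between 10.11 and 11.30 in BCP-ALL lines (r = -0.15). The 3 phosphofructokinases, which commit sugar to glycolysis, differed from each other. PFKP was even, at 9.71 to 10.63 in T-ALL lines and 9.83 to 10.23 in BCP-ALL lines (r = 0.01). PFKM was 5.13 in ALL-SIL and 5.62 in Jurkat, and between 7.93 and 9.62 in the 5 other T-ALL lines and between 8.69 and 9.77 in BCP-ALL lines (r = 0.11). ALL-SIL lacked BNIP3 and Jurkat had it, so the low PFKM levels did not track BNIP3. PFKL had the lowest r of all members, -0.52, and yet 0.64 among the 8 lines with BNIP3.

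The 2 aldolases differed from each other as well. ALDOA, the main form, lay between 10.96 and 12.26 in T-ALL lines and between 11.28 and 11.91 in BCP-ALL lines (r = 0.17). ALDOC, a form best known from brain, was 8.21 in CCRF-CEM, 8.0 in Jurkat, 7.16 in Molt4, 4.86 in P12-ICHIKAWA, 4.42 in HPB-ALL, 4.42 in TALL-1 and 4.35 in ALL-SIL among T-ALL lines. Among BCP-ALL lines it was 8.16 in Nalm6, 8.11 in REH, 8.02 in 697, 6.69 in RS4,11, 5.27 in Nalm16 and 4.49 in Nalm30. ALDOC was thus high in 6 of the 8 lines with BNIP3, Molt4 included, and near the floor in P12-ICHIKAWA and TALL-1, the 2 lines with the most BNIP3. Its r was 0.51 over 13 lines, 0.67 with these 2 lines averaged, and -0.62 among the 8 lines with BNIP3.

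Most enzymes of the lower part of the pathway were far above the floor in every line, with the exception of ENO2, described with the lineages below. TPI1, the triosephosphate isomerase, lay between 10.90 and 11.76 (r = -0.49), GAPDH between 12.45 and 12.84 (r = -0.16) and ENO1 between 11.86 and 12.68 (r = 0.22) over the 13 lines. GAPDH was read from a control probe set of the array, which has the highest mean of its 6, and had a smaller SD, 0.12, than 99.5% of the genes kept. PKM, the pyruvate kinase, was highest in Nalm16 (11.93) and Nalm30 (11.89), both without BNIP3, and its r of -0.40 became 0.10 without them. LDHA, which makes lactate, lay between 12.05 and 12.57 in T-ALL lines and between 11.91 and 12.26 in BCP-ALL lines (r = 0.54, and -0.11 among the 8 lines with BNIP3). LDHB, which favours the reverse reaction, lay between 11.64 and 12.69 in T-ALL lines and between 11.75 and 12.52 in BCP-ALL lines (r = 0.25, and -0.64 among those 8).

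PFKFB3 and PFKFB4, isozymes that make and break fructose-2,6-bisphosphate, an activator of phosphofructokinase, stood highest in P12-ICHIKAWA. PFKFB4 was 8.40 in P12-ICHIKAWA and 7.44 in TALL-1, and between 4.95 and 6.03 in the other T-ALL lines and between 5.02 and 6.18 in BCP-ALL lines. Its r with BNIP3 was 0.52 over 13 lines and 0.84 among the 8 lines with BNIP3, and its r with ADM was 0.88. PFKFB3 lay between 7.06 and 8.70 in T-ALL lines and between 5.48 and 8.59 in BCP-ALL lines, where Nalm6 was the low line (r = 0.15, and Spearman's rho 0.61).

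The other HIF targets had a higher median r with each other than with BNIP3. Their median r with BNIP3 was 0.26 over 7 genes, with 1 of 7 at 0.6 or above. Among each other, the 21 pairs had a median r of 0.49, and 33.3% of the pairs reached 0.6, against the 8.24% of all pairs. P4HA1, which hydroxylates proline in collagen, and ERO1A, which makes disulfide bonds in the endoplasmic reticulum, formed the closest pair (r = 0.87, and 0.85 with P12-ICHIKAWA and TALL-1 averaged). ERO1A also ran with the glycolytic enzyme PGK1 (r = 0.86, and 0.85 with that pair averaged). These correlations are across 13 lines of 2 lineages and carry no test.

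Line by line, P12-ICHIKAWA was the highest of the 13 for 10 of the 30 members: GPI, PFKFB3, PFKFB4, BNIP3, BNIP3L, P4HA1, ADM, ANKRD37, KDM3A and ERO1A. It was the highest line for 4.71% of all genes kept. P12-ICHIKAWA and TALL-1 were together the 2 highest lines for 8 of the 30 members, 4 of them among the 7 other HIF targets and 1 among the 15 glycolytic enzymes. Over all genes kept, this held for 5.63%. Since their arrays are nearly alike, these 2 lines carry little more information than 1. Nalm16 was the lowest line for 7 of 30 members (PGK1, PGAM1, BNIP3, BNIP3L, VEGFA, ERO1A and HIF1A), and it was also the lowest line for 27.7% of all genes kept.

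Some HIF targets were high without BNIP3. VEGFA, the angiogenic growth factor, was highest in HPB-ALL at 9.93, where BNIP3 was at the floor, followed by P12-ICHIKAWA at 9.43. The other T-ALL lines lay between 6.19 and 8.95 and the BCP-ALL lines between 5.85 and 8.15. NDRG1, a stress-response protein, was 8.40 in P12-ICHIKAWA, 8.07 in TALL-1 and 5.27 to 7.61 in the other T-ALL lines. In BCP-ALL lines it was 8.75 in Nalm16, 8.64 in Nalm30 and 5.14 to 6.81 in the others. NDRG1 therefore ran with BNIP3 in T-ALL lines (r = 0.81 over 7) and against it in BCP-ALL lines (r = -0.82 over 6), and the difference between these was not tested. ANKRD37, an ankyrin repeat protein, lay between 6.48 and 8.41 in T-ALL lines and between 6.73 and 8.03 in BCP-ALL lines (r = -0.20).

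Of the oxygen sensing genes, HIF1A and EGLN1 were measured above the floor in the lines with BNIP3, and EGLN3 was near the floor throughout. HIF1A mRNA lay between 9.67 and 10.36 in T-ALL lines and between 9.52 and 10.81 in BCP-ALL lines (r = 0.40), and HIF-1 is known to be set mainly by the stability of its protein, which was not measured. EGLN1, the main HIF prolyl hydroxylase, was 4.13 in HPB-ALL and 6.78 in ALL-SIL, between 7.97 and 9.14 in the other 5 T-ALL lines, and between 8.51 and 9.89 in BCP-ALL lines (r = 0.48). The 2 lines lowest for EGLN1 were thus the 2 T-ALL lines without BNIP3. Its r was 0.86 over T-ALL lines alone, 0.47 over BCP-ALL lines alone and 0.62 without Nalm16 and Nalm30. Of the 4 EGLN1 probe sets, 2 others had r = 0.97 and 0.94 with the one used, and the third was near the floor in all 13 lines. EGLN3, another prolyl hydroxylase and itself a HIF target, was near the floor in all 13 lines (4.35 to 4.95) and was left out of the fits.

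**Figure D2:**
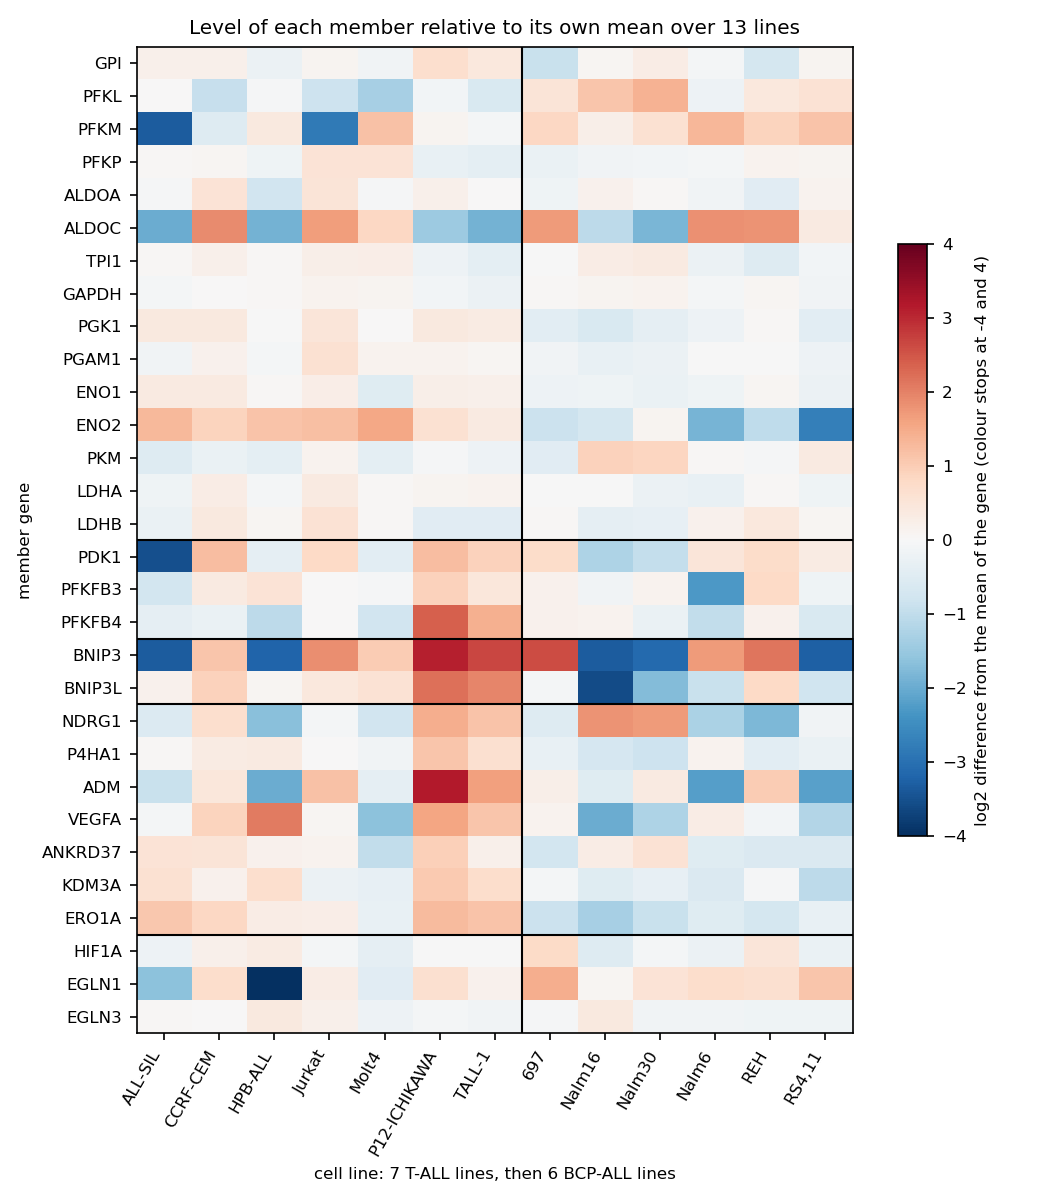
Level of each of the 30 members measured, as the log2 difference from its own mean over the 13 lines (colour, red above and blue below), with T-ALL lines left of BCP-ALL lines and black lines between glycolytic enzymes, regulators of glycolysis, mitophagy receptors, other HIF targets and oxygen sensing genes. BNIP3 shows 5 deep blue cells, most glycolytic enzymes stay pale, and P12-ICHIKAWA and TALL-1 are red for 8 members as the 2 highest lines.

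Among the 8 lines with BNIP3 alone, a different set of members came out. There r was at least 0.6 for 5 of 28 members, PFKFB4 (0.84), KDM3A (0.68), ADM (0.64), PFKL (0.64) and VEGFA (0.62), and 10.6% of the other genes reached it in these 8 lines. It was -0.6 or below for PFKP (-0.73), LDHB (-0.64), ALDOC (-0.62) and TPI1 (-0.61), 4 of 28 members, beside 14.9% of the other genes. The median r in these lines was -0.24 for the 15 glycolytic enzymes and 0.43 for the 7 other HIF targets, against -0.09 for all other genes kept. ADM alone was past 0.6 both here and over 13 lines. P12-ICHIKAWA and TALL-1 are 2 of the 8 lines and the highest of the 8 for BNIP3, PFKFB4, ADM, KDM3A and VEGFA. How far these r values depend on this pair was not tested.

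**Figure D3:**
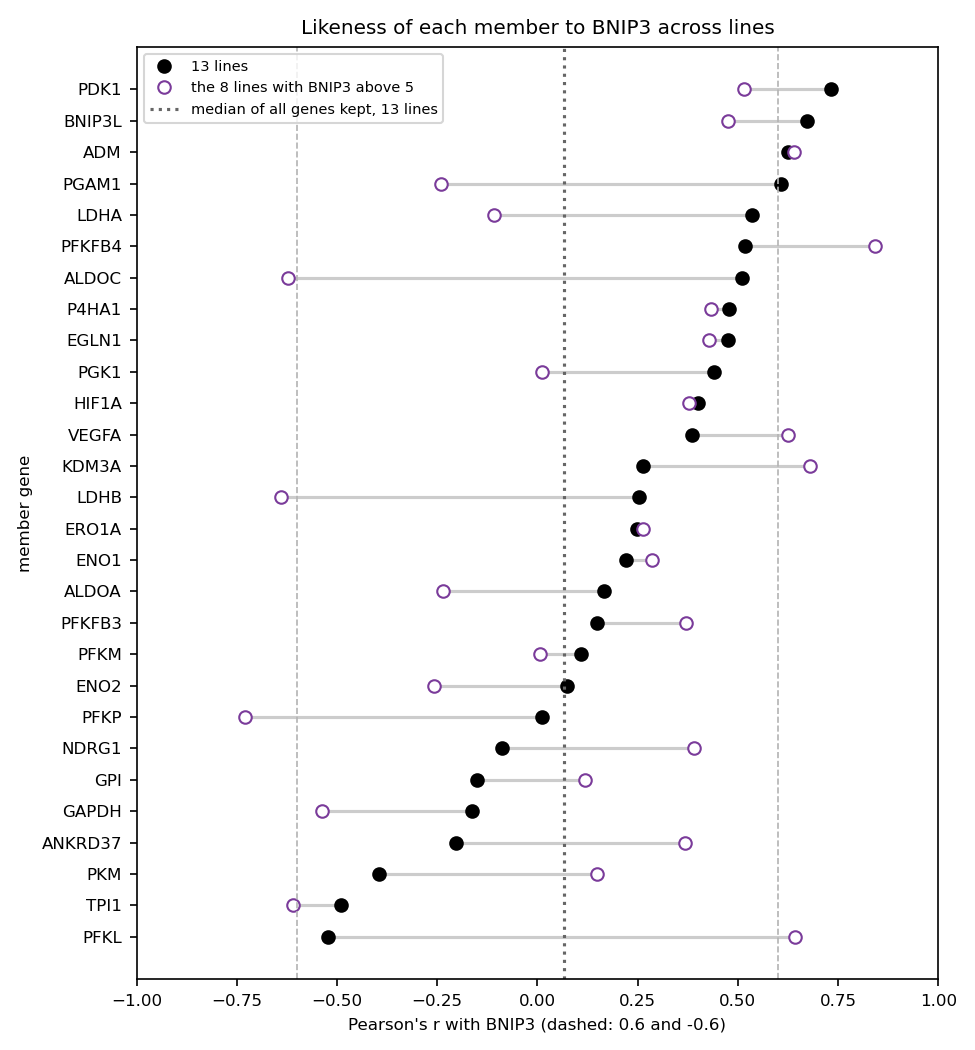
Pearson's r of each of 28 members with BNIP3 over 13 lines (filled) and over the 8 lines with BNIP3 above 5 (open), with dashed lines at 0.6 and -0.6 and a dotted line at the median of all other genes kept over 13 lines, 0.07. Filled points pass 0.6 for PDK1, BNIP3L, ADM and PGAM1, and PFKL, ALDOC, LDHB and PGAM1 show the widest shifts between filled and open points.

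The genes most like BNIP3 among all those kept were not members. CNFN, a gene known from the cornified envelope of skin, had r = 0.94, followed by the long non-coding RNA LINC01963 (0.89), MEAK7, a lysosomal regulator of growth signalling (0.88), TMEM69 (0.88) and CDKN1C, a cyclin-dependent kinase inhibitor (0.88). CNFN signal was low throughout, at 4.04 to 5.34 in T-ALL lines and 4.0 to 5.52 in BCP-ALL lines, and its r among the 8 lines with BNIP3 was 0.35, against 0.71 for LINC01963. CDKN1C was near the floor in Nalm6 and in the 5 lines without BNIP3 (4.20 to 4.91), so its r is limited by the floor. The lowest r values belonged to PTPN14, a tyrosine phosphatase (-0.88), SPSB1 (-0.87), SRGN, the proteoglycan serglycin (-0.87), SRI, the calcium-binding protein sorcin (-0.87), and DTX2 (-0.87). PTPN14 was near the floor (4.0 to 4.79) in 697, Nalm6, REH, Jurkat, P12-ICHIKAWA and TALL-1, so its r is limited by the floor too. SRGN was 10.19 in HPB-ALL, 9.99 in ALL-SIL and 7.92 to 8.65 in the other T-ALL lines, and 10.59 in Nalm16, 10.46 in Nalm30, 10.21 in RS4,11 and 6.61 to 8.51 in the other BCP-ALL lines. The 5 lines without BNIP3 thus held the 5 highest SRGN levels, with a gap to all others. SRGN was named for its extreme r, so this split is not independent of that choice. Among the 8 lines with BNIP3, r was -0.01 for SRGN, -0.06 for TMEM69 and -0.17 for DTX2. There it was 0.55 for MEAK7, 0.52 for CDKN1C, -0.74 for PTPN14, -0.63 for SPSB1 and -0.83 for SRI.

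The lineages were then compared over all 12560 genes kept with limma, and 29 members entered. In T-ALL lines 3 members were higher, ENO2, ERO1A and PGK1, beside 3.96% of all genes kept, and 1 was lower, PFKL, beside 3.67%. The difference was positive for 20 of the 29 members, with a median of 0.29, and for 6659 of the 12560 genes, with a median of 0.03. Of the 7 other HIF targets all had a positive difference, with a median of 0.80, and 1 passed the test. The wider list of 35 further HIF targets was nearly even, with 17 positive and 18 negative differences and a median of -0.02. The 15 glycolytic enzymes had a median difference of 0.10, with 9 positive. In bulk arrays of this kind, fewer cells with a transcript and less of it per cell cannot be told apart.

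ENO2, the enolase best known from neurons, lay between 7.31 and 8.48 in T-ALL lines (median 8.09) and between 4.21 and 7.05 in BCP-ALL lines (median 6.02). The groups did not overlap, which held for this member alone among the 29 and for 3.69% of all genes kept. T-ALL lines averaged 7.95 ± 0.41 and BCP-ALL lines 5.77 ± 0.99 (SD, n = 7 and 6), a difference of 2.18 ± 0.38 on the log2 scale (SE), or 4.53-fold (limma adjusted p = 0.00318). Within BCP-ALL, RS4,11 was near the floor at 4.21 and Nalm30 was the highest.

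ERO1A lay between 8.65 and 10.21 in T-ALL lines (median 9.79) and between 7.63 and 8.65 in BCP-ALL lines (median 8.18), so that the groups met at Molt4 and RS4,11. T-ALL lines averaged 9.61 ± 0.57 and BCP-ALL lines 8.20 ± 0.35 (SD, n = 7 and 6), a difference of 1.41 ± 0.26 (SE), or 2.66-fold (limma adjusted p = 0.00517). Both ENO2 and ERO1A passed the test under every alternative run. The 2 other ERO1A probe sets gave differences of 0.94 and 0.41.

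PGK1, the phosphoglycerate kinase that makes ATP in glycolysis, lay between 11.90 and 12.41 in T-ALL lines (median 12.31) and between 11.33 and 11.99 in BCP-ALL lines (median 11.55). In T-ALL lines 5 of 7 were above every BCP-ALL line. The mean was 12.21 ± 0.20 in T-ALL lines and 11.61 ± 0.23 in BCP-ALL lines (SD, n = 7 and 6), a difference of 0.60 ± 0.15 (SE), or 1.51-fold (limma adjusted p = 0.0257). All 6 PGK1 probe sets were higher in T-ALL lines on average, by 0.54 to 1.80. The call was lost with P12-ICHIKAWA and TALL-1 averaged (adjusted p = 0.0583), without Nalm16 and Nalm30 (0.0784), and without RS4,11, Nalm30, Jurkat, P12-ICHIKAWA or TALL-1 alone (0.0513 to 0.0593).

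PFKL, the liver-type phosphofructokinase, was the member that fell in T-ALL lines. It lay between 6.83 and 8.17 in T-ALL lines (median 7.55) and between 7.97 and 9.55 in BCP-ALL lines (median 8.71), with Nalm30 and Nalm16 the 2 highest. The mean was 7.61 ± 0.51 in T-ALL lines and 8.80 ± 0.56 in BCP-ALL lines (SD, n = 7 and 6), a difference of -1.19 ± 0.29 (SE), or 2.29-fold lower (limma adjusted p = 0.0219). Its second probe set gave -1.26. Without Nalm16 and Nalm30 the difference was -0.89 and the call was lost (adjusted p = 0.0992), as it was without Nalm16 (0.0514) or Nalm30 (0.0520) alone.

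**Figure D4:**
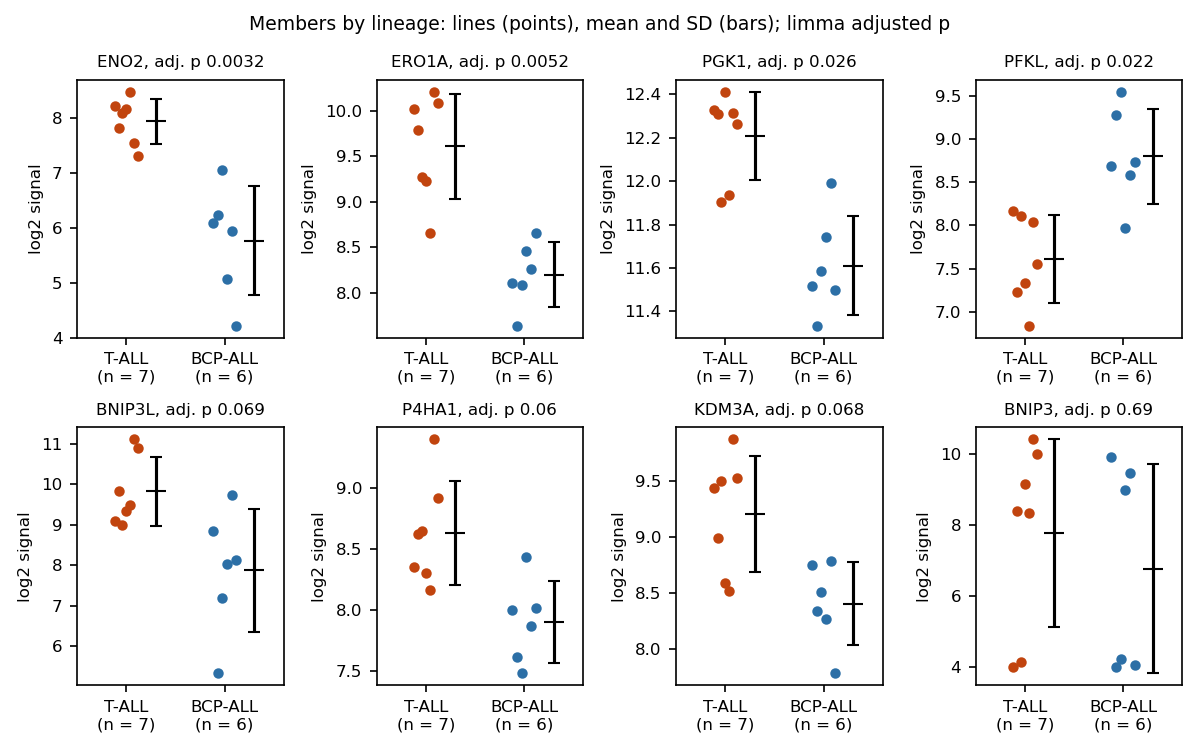
Levels (log2 signal) of 8 members in 7 T-ALL lines (left in each panel) and 6 BCP-ALL lines (right), with each line a point, the mean and SD as bars and the limma adjusted p above; the scale differs between panels and does not start at 0. The points of ENO2 do not overlap between lineages, those of ERO1A touch, and BNIP3 has lines at both ends in both lineages.

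Several HIF targets lay close to the threshold without passing it. P4HA1 averaged 8.63 ± 0.42 in T-ALL lines and 7.90 ± 0.34 in BCP-ALL lines (difference 0.73 ± 0.22, limma adjusted p = 0.0597). KDM3A, a histone demethylase, averaged 9.20 ± 0.51 in T-ALL lines and 8.41 ± 0.37 in BCP-ALL lines (difference 0.80 ± 0.25, limma adjusted p = 0.0682). BNIP3L averaged 9.82 ± 0.85 in T-ALL lines and 7.87 ± 1.51 in BCP-ALL lines (difference 1.95 ± 0.61, limma adjusted p = 0.0692). Each passed the test when certain single lines were left out, REH for BNIP3L, Nalm6 or Molt4 for P4HA1, and Jurkat or Molt4 for KDM3A. With P12-ICHIKAWA and TALL-1 averaged, the limma adjusted p rose to 0.135 for BNIP3L, 0.108 for P4HA1 and 0.131 for KDM3A. Without Nalm16 and Nalm30 it was 0.220, 0.220 and 0.158 in that order. The second BNIP3L probe set gave a difference of 0.75. VEGFA differed by 1.25 ± 0.57 and PFKM by -1.57 ± 0.65, and neither passed (limma adjusted p = 0.187 and 0.153).

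Related genes outside the members were read from lists chosen by pathway, with earlier results of these data known. Beside the counts in these lists, 3.96% of all genes kept were higher and 3.67% lower in T-ALL lines. An r with BNIP3 of at least 0.6 held for 5.49% of the other genes kept, and of -0.6 or below for 3.17%. Of 10 other glycolysis genes kept, none passed the lineage test and 1 reached an r of 0.6 with BNIP3, LDHC, a testis form of lactate dehydrogenase (r = 0.64, and -0.23 among the 8 lines with BNIP3). HK1 and HK2, which trap glucose in the cell, had r = -0.57 and 0.57, but 0.30 and -0.16 among the 8 lines with BNIP3. Of 35 further HIF targets kept, with a median r of 0.13, 1 was higher and 4 lower in T-ALL lines, and 2 reached an r of 0.6. The 2 that reached it were FAM162A, a mitochondrial protein, at 0.72, and HILPDA, a lipid droplet protein, at 0.63. The adenylate kinase AK4 came next at 0.59. Among the 8 lines with BNIP3, r was 0.57 for HILPDA and 0.70 for AK4. FAM162A was also the one called higher, at 10.88 in T-ALL lines and 9.88 in BCP-ALL lines (difference 1.0 ± 0.25, limma adjusted p = 0.0275), and its r among the 8 lines with BNIP3 was 0.02. The 4 called lower were AKAP12, a scaffold protein (-4.09), the GTPase RAB20 (-1.95), P4HA2, the sister enzyme of P4HA1 (-1.52), and CITED2, which competes with HIF for its coactivators (-1.07), with limma adjusted p between 0.00145 and 0.0293. AKAP12 was near the floor in 6 of 7 and RAB20 in 4 of 7 T-ALL lines, so these differences are limited by the floor. P4HA2 was at or near the floor in all T-ALL lines (4.0 to 4.35) and lay between 4.95 and 6.49 in BCP-ALL lines.

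Of 14 other HIF subunits and regulators kept, the coactivator CREBBP was lower in T-ALL lines (8.17 against 9.02 in BCP-ALL lines, limma adjusted p = 0.00881) and none reached an r of 0.6 with BNIP3 in either direction. EP300, its paralogue, had r = -0.56, CUL2 0.47 and ARNT, the partner subunit of HIF1A, 0.46. Among the 8 lines with BNIP3, r was -0.48 for EP300, -0.69 for CUL2 and -0.12 for ARNT. Of 16 mitophagy receptors and partners kept, BCL2, which binds BNIP3, was lower in T-ALL lines (7.69 against 9.43 in BCP-ALL lines, limma adjusted p = 0.0166). The autophagy receptor SQSTM1 ran opposite to BNIP3 (r = -0.65, and -0.26 among the 8 lines with BNIP3). NLRX1 had r = -0.60, just short of the threshold, and -0.52 among those 8. MAP1LC3B, a protein that BNIP3 and BNIP3L bind on the autophagosome, had r = 0.45, and 0.58 among those 8. Of 12 genes of pyruvate entry kept, 3 were higher in T-ALL lines, beside 3.96% of all genes kept. These were the phosphatase PDP1 by 1.51, the pyruvate transporter SLC16A7 by 1.33 and the kinase PDK3 by 0.88 (limma adjusted p = 0.0293, 0.0171 and 0.0291). SLC16A7 was near the floor in 4 of 6 BCP-ALL lines, so its difference is limited by the floor. None of the 12 reached an r of 0.6 with BNIP3, and MPC2 (0.53), DLD (0.51) and PDHB (0.45) were the nearest. Among the 8 lines with BNIP3, r was 0.36 for MPC2, -0.49 for DLD and 0.32 for PDHB. Of 12 proliferation genes none passed the lineage test, and BUB1 (0.65), MCM2 (-0.67) and PCNA (0.58) had the largest r with BNIP3 in size. Among the 8 lines with BNIP3, r was 0.30 for BUB1, -0.48 for MCM2 and -0.49 for PCNA. The median over the list was 0.43 over 13 lines and -0.38 among those 8. The part of the proliferation genes in the values of the members was not tested.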

How the data were processed

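RNA of 13 untreated ALL cell lines was hybridised to Affymetrix HG-U133 Plus 2.0 arrays, 1 array per line. The labels describe phenol-chloroform extraction after 30 h in culture, and the methods a spin column kit after an overnight change of medium. The authors deposited log2 values of the iterPLIER signal plus 16, made in Affymetrix Expression Console (version not given in the sources used here), so the lowest possible value is 4. Their scaling between arrays is not known.

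Of 42450 probe sets, the 38125 with 1 gene symbol gave 18568 genes, each by its probe set with the highest mean. Genes above the array median in at least 3 lines (12560) were kept. T-ALL and BCP-ALL lines, as labelled, were compared with limma 3.58.1 in R 4.3.3 (lmFit, eBayes, Benjamini-Hochberg over all genes kept, threshold 0.05), and likeness to BNIP3 was Pearson's r, with no test. Both steps were tested on simulated data. The limma simulation drew independent noise for each line, with no floor and no alike pairs, so it does not cover these features of the arrays. P-values rest on the spread over lines, and precision is limited by how many arrays there are.

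The members and lists were chosen with earlier results of these data known. Named beside the members were the 5 genes with the highest and the 5 with the lowest r, and from each list up to 3 called genes with the smallest p and up to 3 with the largest r in size. The lists of B-cell precursor, T-cell precursor, myeloid and erythroid markers checked the labels. Of the myeloid markers 4 and of the erythroid markers 1 were kept, and none of these passed the lineage test. Alternatives were array scaling, low-value filters, the choice of probe set, Spearman's rho, other thresholds, lineage, and averaging or leaving out lines. Averaging both pairs, r among the 8 lines with BNIP3 and GAPDH outside control probe sets were chosen after seeing the data.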

Additional observations from a re-analysis of the deposited data

Results flagged for a closer look

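A member was singled out where the highest or lowest line of a lineage lay farther from its neighbour than Dixon's 95% value for that number of lines allows. This held for 7 of 60 groups of lines, and chance alone marks about 1 in 20.

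Among T-ALL lines, PDK1 was 4.14 in ALL-SIL, against 7.24 in the next line, Molt4, which was the widest gap in log2 units. ENO1 was 11.86 in Molt4, against 12.37 in HPB-ALL, and ANKRD37 was 6.48 in Molt4, against 7.60 in Jurkat. PGAM1 was 12.04 in Jurkat, against 11.59 in CCRF-CEM.

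Among BCP-ALL lines, PFKFB3 was 5.48 in Nalm6, against 7.60 in RS4,11. ENO1 was 12.40 in REH, against 12.17 in Nalm6, a gap of little size in a gene that varied little. EGLN3 was 4.95 in Nalm16, against 4.50 in 697, all near the floor.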

How the results depend on the processing

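The count of members called between lineages, 4 in all, ran from 2 to 6 when 1 line was left out, and was 2 without Nalm16 and Nalm30 and 2 with both pairs averaged, where ENO2 and ERO1A stayed called. Over all genes kept, 958 were called, 609 to 1223 when 1 line was left out, 610 with P12-ICHIKAWA and TALL-1 averaged and 472 with both pairs averaged, where fewer lines were fitted. The BNIP3 difference turned to -0.33 without Nalm16 and Nalm30, and the cause was not tested.

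The count of members following BNIP3, 4 in all, ran from 3 to 6 when 1 line was left out. It was 9 in BCP-ALL lines alone and 10 in T-ALL lines alone, where r rests on 6 and 7 lines, and 7 at an r of at least 0.5 and 1 at 0.7. PDK1 kept an r of at least 0.6 under every alternative except among the 8 lines with BNIP3. Among those 8 lines the r of PGAM1 turned to -0.24. No paired analysis was made, because each line is a separate culture and the labels pair no T-ALL line with a BCP-ALL line.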

Other observations

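Within each lineage alone, 3 glycolytic enzymes had r values with BNIP3 of opposite sign and at least 0.59 in size in both lineages. PKM had r = 0.76 over the 7 T-ALL lines and -0.90 over the 6 BCP-ALL lines, ALDOA 0.65 and -0.87, and GPI 0.59 and -0.86. The signs also differed for LDHB, ENO1 and PFKP, whose r over T-ALL lines was close to 0 (-0.06, -0.01 and 0.003). Their r over BCP-ALL lines was 0.74, 0.57 and -0.10. Some other enzymes of the upper pathway had the same sign in both, such as PFKL (-0.49 over T-ALL lines and -0.71 over BCP-ALL lines) and ALDOC (0.36 and 0.88). VEGFA had r = -0.05 over T-ALL lines and 0.93 over BCP-ALL lines, and HIF1A -0.19 and 0.76. In BCP-ALL the lines 697, Nalm6 and REH held BNIP3 and Nalm16, Nalm30 and RS4,11 did not, so each r there sets 3 lines against 3, and without Nalm16 and Nalm30 the r of PKM over all lines was 0.10. These differences between lineages were not tested, and the genes were chosen after their values were seen.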
